A study of Homo sapiens with 38 samples.

Results

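Kinesins are motor proteins that use ATP to move along microtubules or to shorten them. One set of them builds, aligns and cleaves the mitotic spindle and is made mainly in dividing cells. Another set carries vesicles, organelles and other cargo, and several of its members are abundant in neurons, whose axons depend on long-range transport. Neuroblastoma arises from the sympathetic nervous lineage, so its cells carry neuronal gene expression while they divide. The kinesin genes described here are all symbols that begin with KIF or KIFC, followed by a number and at most 1 letter from A to C, in every count file. This rule gave 42 genes of the 49070 symbols that all files share. By the known roles of their products they were sorted into 14 mitotic, 17 transport and 11 other kinesins. Antisense genes, pseudogenes and kinesin-associated proteins whose symbols begin in the same way were left out.

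Total RNA had been sequenced from libraries labelled as 5 established human neuroblastoma cell lines. BE2C cells, a line with MYCN amplification, had received a control siRNA (siCtrl, 2 libraries) or 1 of 3 siRNAs directed at the histone demethylase gene KDM6B (N1, N2 and N33, 1 library each) for 72 h, or 2.5 μM of the KDM6 inhibitor GSK-J4 for 0 h, 24 h or 48 h, with 2 libraries per time. The CDK4/6 inhibitor palbociclib was given for 72 h at 300 nM to CHLA15 and CHLA20 cells and at 3 μM to NB1643 and NB1691 cells, each beside a control of the same line whose time the labels do not give (2 libraries per line and condition). Dose and line pair therefore cannot be told apart. The study describes the palbociclib lines as 2 with MYCN amplification and 2 without, and which are which is not given in the sources used here. Each condition rests on cells of 1 line, and the labels do not say whether replicates are separate cultures. The p-values therefore measure the spread between these libraries, which may be technical. In the siRNA experiment N1, N2 and N33 were fitted as 1 group, so the spread there also holds differences between the 3 siRNAs.

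Levels are given in CPM, the share of a library's counts scaled to a fixed total, with library sizes scaled by the TMM method within each experiment, so levels should be read within an experiment and not across them. The 27 libraries held 36186567 to 93011010 counts on genes, and 3 counts, the limit taken as the floor, correspond to at most 0.0829 CPM. KIF2B was at 0 counts in all 27 libraries. KIF4B, an intronless near-copy of KIF4A, had 1 to 14 counts in each library. KIF12, KIF19 and KIF25 had 0 to 6 counts in the BE2C libraries. In the BE2C experiments 37 of the 42 members passed the filter on low counts, and 41 passed it in the palbociclib experiment, all except KIF2B.

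The libraries labelled NB1691 stood apart from those of the other lines. In the untreated NB1691 libraries 6 fibroblast markers summed to 16457 to 16757 CPM, with the collagen gene COL1A1 at 14841 and 14558 CPM, against sums of 71.2 to 395 CPM in the untreated libraries of the other palbociclib lines. The 10 adrenergic neuroblastoma markers, a list that includes MYCN, summed to 621 to 672 CPM there against 2847 to 5541 CPM. TH, the first enzyme of catecholamine synthesis, was at 0.75 and 0.69 CPM in untreated NB1691. The transcription factor gene HAND2 was at 90.5 and 97.5 CPM there. COL1A1 thus made up most of the fibroblast sum, and members other than TH and HAND2 made up most of the adrenergic sum. The fibroblast and TH levels put the label of a neuroblastoma line in question, but no marker level here decides it by itself. Whether these libraries hold the line they are named for is uncertain. They are called NB1691 as labelled, and results that rest on them are also given without them.

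Most promoters of the mitotic members hold short sequence elements that the rule for choosing members did not use, and these are shown first. Whether the elements bear on the expression results was not tested. The cell cycle genes homology region (CHR), spelled TTTGAA, is known as the binding element of the MuvB complexes that restrain many late cell cycle genes in resting cells and switch them on before mitosis. CCAAT boxes, bound by NF-Y, often stand upstream of it. RefSeq promoter windows (250 bases before to 50 after the transcript start, table build GRCh38.p14) were found for 34 of the 42 members, and each was matched once in GRCh37. KIF5A, KIF13B, KIF19, KIF21B, KIF26B, KIF27, KIFC2 and KIFC3 had no entry. On either strand, TTTGAA was present in 10 of 14 mitotic promoters (71.4%), in 1 of 12 transport promoters (8.33%) and in 0 of 8 others, against 12.1% of the 15843 promoters of protein-coding genes in the table. The mitotic promoters without it were those of KIF2B, KIF2C, KIF20A and KIF22. CCAAT was present in 11 of 14 mitotic promoters (78.6%), 3 of 12 transport promoters (25%) and 36.4% of all promoters. Both elements together were present in 9 of 14 mitotic promoters (64.3%), 1 of 12 transport promoters and 5.02% of all. The E2F sequences TTTCCCGC, TTTCGCGC, TTTGCCGC and TTTGGCGC were found in the promoters of KIF15 and KIF25 among the members, and in 4.44% of all promoters. These are matches of letters, searched on both strands, and were not tested as binding sites.

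The windows below hold the CHR of the 4 mitotic members followed throughout (KIF11, KIF20A, KIF23 and KIFC1), of KIF2C, KIF4A and KIF18A, and of KIF5B, the 1 transport member with TTTGAA. Each runs 5′ to 3′ on the strand of the gene. Capitals mark TTTGAA, its reverse complement TTCAAA, or TTTAAA, a variant of the element that is shown for KIF20A and KIF2C, whose windows lack TTTGAA. With the variant, 12 of 14 mitotic promoters (85.7%), 2 of 12 transport promoters (16.7%) and 19.5% of all promoters held the element.
KIF11 (chr10:94352847-94352876, plus strand): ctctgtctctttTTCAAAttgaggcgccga
KIF20A (chr5:137514748-137514777, plus strand): cgcagcgcgtaaTTTAAAatattgtatctg
KIF23 (chr15:69706621-69706650, plus strand): ctgattggcccgTTTGAAatgcgccaggcg
KIFC1 (chr6:33359592-33359621, plus strand): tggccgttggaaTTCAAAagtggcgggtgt
KIF2C (chr1:45205494-45205523, plus strand): ttgcgcgcgggaTTTAAActgcggcggttt
KIF4A (chrX:69509908-69509937, plus strand): ctccgggacggaTTTGAAacttggcggtta
KIF18A (chr11:28129696-28129725, minus strand): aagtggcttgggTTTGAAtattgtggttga
KIF5B (chr10:32345476-32345505, minus strand): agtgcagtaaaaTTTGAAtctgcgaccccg
Coordinates are GRCh37. Counted from the transcript start, the first base of the element lay at -28 in KIF11, -41 in KIF20A, -55 in KIF23 and 5 in KIFC1, whereas it lay at -140 in KIF5B. Upstream of these elements the CCAAT boxes of 3 mitotic promoters are shown for comparison, with CCAAT or its reverse complement ATTGG in capitals.
KIF11 (chr10:94352822-94352851): gccagcgcagccATTGGtccggctactctg
KIF23 (chr15:69706612-69706641): ggacgggcgctgATTGGcccgtttgaaatg
KIF4A (chrX:69509884-69509913): gtccgcactgcaATTGGttggcgtctccgg
In KIF23 the CCAAT box and the CHR stand close enough for 1 window to hold both, and in all 3 genes the box is read on the strand opposite to the gene.

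Levels of different genes can be compared only per length, so CPM was divided by the exonic length in kilobases (CPM per kb, GENCODE annotation on GRCh37). This length takes in the exons of all annotated transcripts of a gene, used by the cells or not. The order of members with close levels depends on it, which was not tested. In untreated BE2C cells at 0 h the highest members were KIF5B at 80.3 CPM per kb, the ubiquitous heavy chain of kinesin-1, KIF21A at 79.7 CPM per kb, a motor of axons and regulator of microtubule growth, and KIF20A at 79.0 CPM per kb, which carries the chromosomal passenger complex to the central spindle. The 2 libraries of these genes spanned 79.9 to 80.7, 79.6 to 79.7 and 77.9 to 80.1 CPM per kb, so KIF20A overlapped both of the others, while KIF5B lay just above KIF21A. KIF11, the motor that pushes spindle poles apart, followed at 42.2 CPM per kb. In untreated CHLA15 and CHLA20 cells KIF5B and KIF21A also led, at 53.1 and 49.9 CPM per kb in CHLA15 and at 49.7 and 44.9 CPM per kb in CHLA20. In untreated NB1643 cells KIF5C, a neuron-enriched kinesin-1 heavy chain, led at 68.2 CPM per kb. In untreated NB1691 cells KIF5B led at 44.1 CPM per kb, followed by KIF3B, a kinesin-2 subunit, at 25.1 CPM per kb.

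The first comparison asked what changed 72 h after transfection with the siRNAs against KDM6B. KDM6B itself measured 6.47 and 8.76 CPM with the control siRNA, and 8.99, 7.11 and 8.26 CPM with N1, N2 and N33. The RNA of the target was thus not lower in the libraries labelled siKDM6B, and directions below refer to those labels. The study reports KDM6B knockdown in BE2C cells from immunoblots, and these RNA levels do not measure protein. No kinesin passed the test at an adjusted p under 0.05 (edgeR, 0 of 37 tested), and neither did any other gene (percent called 0%). At an unadjusted p under 0.05 stood 7 of 37 kinesins (18.9%), all with lower levels, beside 9.24% of all genes. With DESeq2 164 of the 17472 genes passed, none of them a kinesin, and with limma-voom 0 genes passed.

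The mitotic kinesins had lower values in the libraries labelled siKDM6B, without passing the test. KIF11 stood at 220 and 206 CPM with siCtrl against 103, 130 and 71.4 CPM in N1, N2 and N33 (log2 fold change -1.07 ± 0.29 SE, adjusted p = 0.52). KIFC1, a minus-end-directed motor that focuses spindle poles, stood at 99.0 and 108 CPM against 35.8, 72.2 and 21.9 CPM (-1.25 ± 0.47, adjusted p = 0.52). KIF20A stood at 264 and 248 CPM against 129, 196 and 29.1 CPM (-1.11 ± 0.67, adjusted p = 0.65). All 3 libraries labelled siKDM6B lay below both siCtrl libraries for these genes, and N33 was the lowest in each. KIF23, a centralspindlin motor needed for cytokinesis, stood at 134 and 129 CPM against 64.3, 107 and 54.0 CPM (-0.81 ± 0.32, adjusted p = 0.53). Over the 12 mitotic members tested the median log2 fold change was -0.77, over the 17 transport members -0.08 and over all genes 0.04. The groups did not overlap, with the libraries labelled siKDM6B lower, for 10 of 12 mitotic members, beside 16.8% of all genes. Without N33 the median of the mitotic members was -0.46. The summed level of 8 proliferation markers was 2723 and 2625 CPM in siCtrl and 2017, 1962 and 735 CPM in N1, N2 and N33. The fibroblast markers summed to 157 and 158 CPM against 238, 222 and 219 CPM, the adrenergic markers to 3898 and 4032 CPM against 4285, 3817 and 1252 CPM, and reads on no gene made up 12.5% and 12.7% against 16.8%, 16.1% and 13.0%. The part of these in the kinesin values was not tested.

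Transport kinesins went in different directions among the 3 siRNAs. KIF1A, the carrier of synaptic vesicle precursors, stood at 233 and 273 CPM with siCtrl against 269, 124 and 326 CPM in N1, N2 and N33 (log2 fold change -0.08 ± 0.40, adjusted p = 0.97), and without N2 the difference changed sign to 0.24. KIF5A, a neuronal kinesin-1 heavy chain, stood at 22.2 and 25.9 CPM against 45.1, 20.5 and 41.4 CPM (0.57 ± 0.37, adjusted p = 0.67). KIF5C stood at 189 and 196 CPM against 151, 132 and 120 CPM (-0.52 ± 0.21, adjusted p = 0.53). Only for KIF5C among these 3 did the groups not overlap. The N33 library stood apart from N1 and N2 for some members, chosen here after their values were seen. KIF3B was at 237 CPM there against 74.9 in N1 and 36.0 CPM in N2, and KIF26A, a kinesin without motor ATPase activity, was at 34.6 CPM against 267 and 217 CPM. MYCN, which is among the adrenergic markers summed above, was at 466 CPM in N33 and at 1742 and 1736 CPM in N1 and N2. The common biological coefficient of variation of this fit was 0.35, against 0.0219 for GSK-J4. With each deposited file taken as a sample, 9 kinesins passed the test, all of them lower (4 mitotic, 4 transport and 1 other), beside 15.4% of all genes, but files of 1 library are not replicates.

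**Figure D1:**
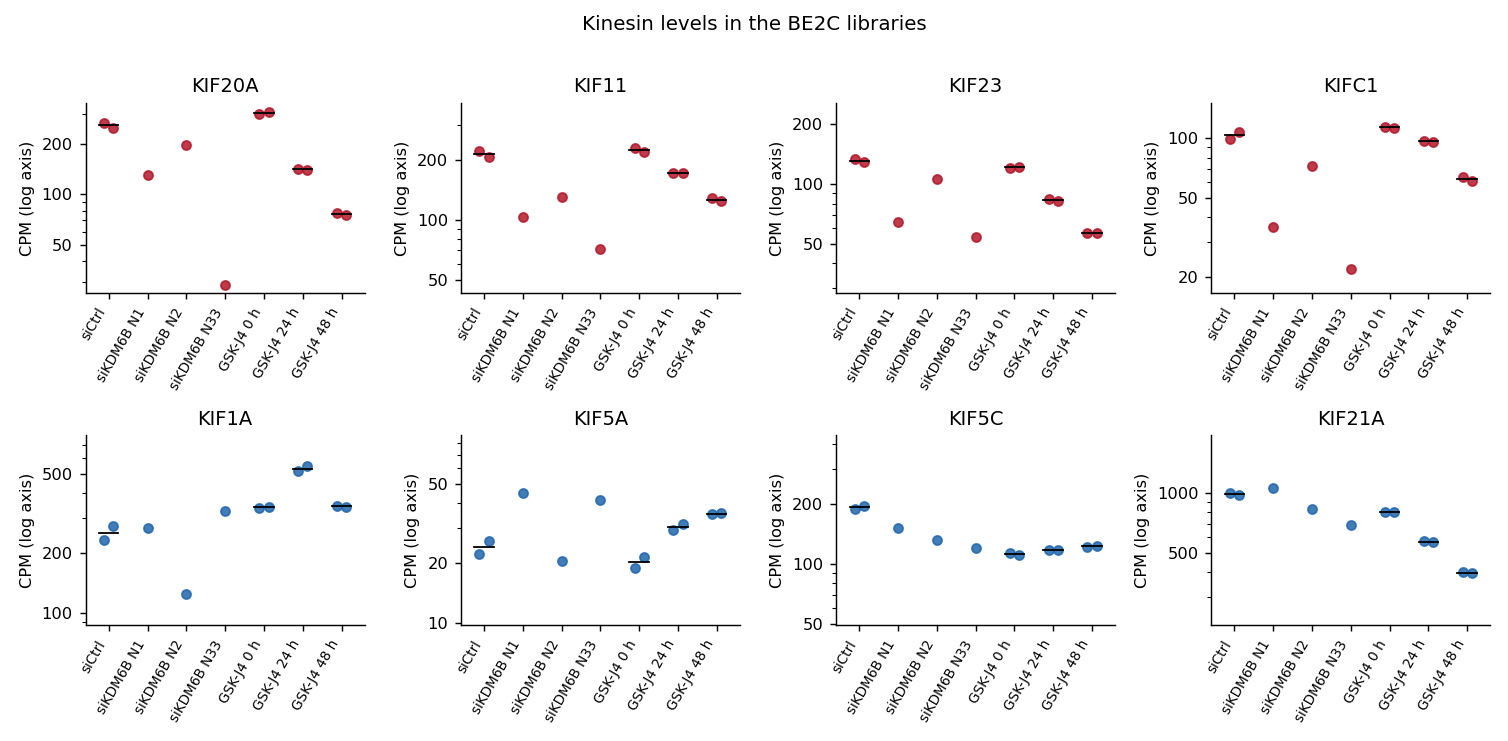
Levels of 4 mitotic (red) and 4 transport (blue) kinesins in the BE2C libraries, in CPM on a log axis. Each point is 1 library and the bar is the mean of 2; the mitotic members step down from 0 h to 24 h and 48 h of GSK-J4 (KIF20A 300 and 309, 141 and 140, 77.7 and 74.9 CPM), while KIF5A steps up and KIF1A is highest at 24 h.

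The second comparison followed BE2C cells through 24 h and 48 h of GSK-J4. Mitotic kinesins fell at both times, and further at 48 h. At 24 h, 11 of the 12 mitotic members tested were lower and none higher (edgeR, adjusted p under 0.05), and at 48 h all 12 were lower. Over all genes the percent called lower was 28% at 24 h and 34.4% at 48 h, and the percent called in either direction 55.3% and 71.5%. Since a majority of genes passed the test, the counts of members called in either direction (26 and 30 of 37) say little by themselves. The median log2 fold change of the mitotic members was -0.34 at 24 h and -0.89 at 48 h, against 0.01 and 0.05 over all genes. Both times share the 0 h libraries. No library without the drug was taken at 24 h or 48 h, so GSK-J4 and time in culture cannot be told apart.

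KIF20A had the largest decrease of the family at both times. Its level was 300 and 309 CPM at 0 h, 141 and 140 CPM at 24 h and 77.7 and 74.9 CPM at 48 h. These are 2.17-fold and 3.99-fold decreases (log2 fold changes -1.12 ± 0.03 and -1.99 ± 0.03, adjusted p = 3.4e-32 and 4.3e-42), and the replicate libraries differed far less than the times did. KIF20A lies at chr5:137514408-137523412 (GRCh37, plus strand), and about 5.35% of its exonic bases overlap BRD8 and CDC23 on the opposite strand, and whether counting used strand is not given in the sources used here. KIF14, which works with citron kinase in cytokinesis, went from 152 and 151 CPM to 101 and 97.5 CPM and then to 66.2 and 66.9 CPM (-0.61 ± 0.03 and -1.19 ± 0.03, adjusted p = 8.2e-21 and 5.0e-32). KIF23 went from 121 and 122 CPM to 83.9 and 82.1 CPM and to 56.8 and 56.7 CPM (-0.55 ± 0.03 and -1.10 ± 0.04, adjusted p = 1.5e-18 and 4.8e-30). The 3 products all act late in mitosis, at the central spindle or in cytokinesis. KIF11 went from 230 and 219 CPM to 171 and 171 CPM and to 129 and 124 CPM (-0.39 ± 0.03 and -0.83 ± 0.03, adjusted p = 5.8e-15 and 4.3e-27).

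Some spindle motors changed mainly on the second day. KIF2C, which depolymerizes microtubules at kinetochores, was the mitotic member that did not pass the test at 24 h, with 109 and 108 CPM at 0 h and 108 and 103 CPM at 24 h (log2 fold change -0.04, 95% confidence interval -0.11 to 0.03, adjusted p = 0.36). By 48 h it had fallen to 60.02 and 59.3 CPM (-0.86 ± 0.04, adjusted p = 1.2e-25). KIFC1 went from 114 and 113 CPM to 97.2 and 96.0 CPM at 24 h (-0.23 ± 0.03, adjusted p = 1.4e-07) and to 63.7 and 60.7 CPM at 48 h (-0.87 ± 0.04, adjusted p = 7.4e-26). About 14.0% of the exonic bases of KIFC1 overlap a ribosomal protein pseudogene on the opposite strand. KIF4A, a chromosome-bound motor that sets the length of the central spindle, went from 101 and 105 CPM to 86.6 and 84.1 CPM and to 52.7 and 51.0 CPM (-0.27 ± 0.04 and -0.99 ± 0.04). Between 24 h and 48 h all 12 mitotic members fell, beside 28% of all genes called lower (53.9% in either direction). The steepest of these steps were those of KIF20A (-0.88), KIF2C (-0.82), KIF4A (-0.72) and KIFC1 (-0.63), each with an adjusted p of 3.3e-20 or less in edgeR. With upper-quartile scaling, which moved the median of all genes from 0.05 to 0.16 at 48 h, the counts of mitotic members called were 11 at 24 h and 12 in both other comparisons.

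Transport kinesins did not move as a block. At 24 h, 6 of 17 were higher and 4 lower, and at 48 h 8 were higher and 5 lower, with medians of 0.07 and 0.05. Over all genes the percent called higher was 27.3% and 37.1%. KIF5A, which is expressed mainly in neurons, rose from 18.9 and 21.4 CPM to 29.3 and 31.6 CPM at 24 h and to 35.1 and 35.6 CPM at 48 h (log2 fold change 0.60 ± 0.06 and 0.81 ± 0.06, adjusted p = 5.5e-12 and 3.3e-17). KIF1A rose from 338 and 341 CPM to 518 and 545 CPM at 24 h (0.65 ± 0.03, adjusted p = 4.7e-24). At 48 h it was back at 347 and 340 CPM, with a difference from 0 h of 0.02 (95% confidence interval -0.04 to 0.08, adjusted p = 0.60), and the fall from 24 h to 48 h was -0.63 ± 0.03 (adjusted p = 1.2e-23). Against 0 h, the sign of the 48 h value changed with DESeq2 to -0.01, and with upper-quartile scaling the value was 0.13 (adjusted p = 0.00013). KIF5C varied little, from 113 and 111 CPM to 117 and 118 CPM and to 122 and 123 CPM (0.07 ± 0.03, adjusted p = 0.089, and 0.13 ± 0.03, adjusted p = 0.00063).

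Beside KIF1A and KIF5A, the largest rises at either time among members of at least 1 CPM were those of KIFC2, KIF13A and KIF13B. KIFC2, a neuronal motor with its motor domain at the C-terminal end, rose from 1.60 and 1.29 CPM to 2.17 and 3.83 CPM and to 5.77 and 5.79 CPM (log2 fold change 1.05 ± 0.20 and 1.99 ± 0.18, adjusted p = 2.0e-05 and 6.8e-14). The level was low, and 17.8% of its exonic bases overlap FOXH1 on the opposite strand. KIF13A, which sorts endosomal cargo, rose from 4.14 and 4.56 CPM to 7.92 and 8.55 CPM and stayed at 7.94 and 8.08 CPM (0.92 ± 0.11 and 0.88 ± 0.11). KIF13B rose from 8.998 and 8.75 CPM to 12.9 and 14.0 CPM and to 13.9 and 15.5 CPM (0.60 ± 0.08 and 0.72 ± 0.08). In the other direction, KIF21B, a neuronal motor of low level here, went from 1.82 and 1.91 CPM to 0.927 and 1.47 CPM and to 0.571 and 0.709 CPM (-0.64 ± 0.23, adjusted p = 0.017, and -1.56 ± 0.25, adjusted p = 4.1e-07). Its 24 h call was lost with DESeq2 (adjusted p = 0.096) and without any library except the second of 24 h (adjusted p = 0.053 and 0.089 without the first and second of 0 h and 0.31 without the first of 24 h). KIF21A, chosen here after its values were seen, fell from 807 and 806 CPM to 573 and 568 CPM and to 400 and 399 CPM (-0.50 ± 0.03 and -1.01 ± 0.03).

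From 24 h to 48 h, 3 transport members rose and 7 fell, beside 25.9% of all genes called higher and 28% called lower. The number higher was 5 with library totals or with each file as a sample and 6 with upper-quartile scaling. Among all kinesins the split of higher to lower calls in this step was 4 to 22 with TMM and 7 to 19 with upper-quartile scaling. At 24 h it was 9 to 17 against 13 to 16. Over all genes the split moved as well, from 4593 to 4958 with TMM to 5558 to 4007 with upper quartiles in this step. At 24 h the split of all genes was 4833 to 4969 against 5550 to 4329. The 3 transport members that rose from 24 h to 48 h were KIFC2 (0.95 ± 0.14), KIF5A (0.22 ± 0.05) and KIF1B (0.15 ± 0.03), a carrier of mitochondria and synaptic vesicle precursors. KIF26B, a kinesin-like protein without motor ATPase activity and classed among the others, rose from 232 and 231 CPM at 24 h to 321 and 322 CPM at 48 h (0.47 ± 0.03, adjusted p = 3.8e-19).

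**Figure D2:**
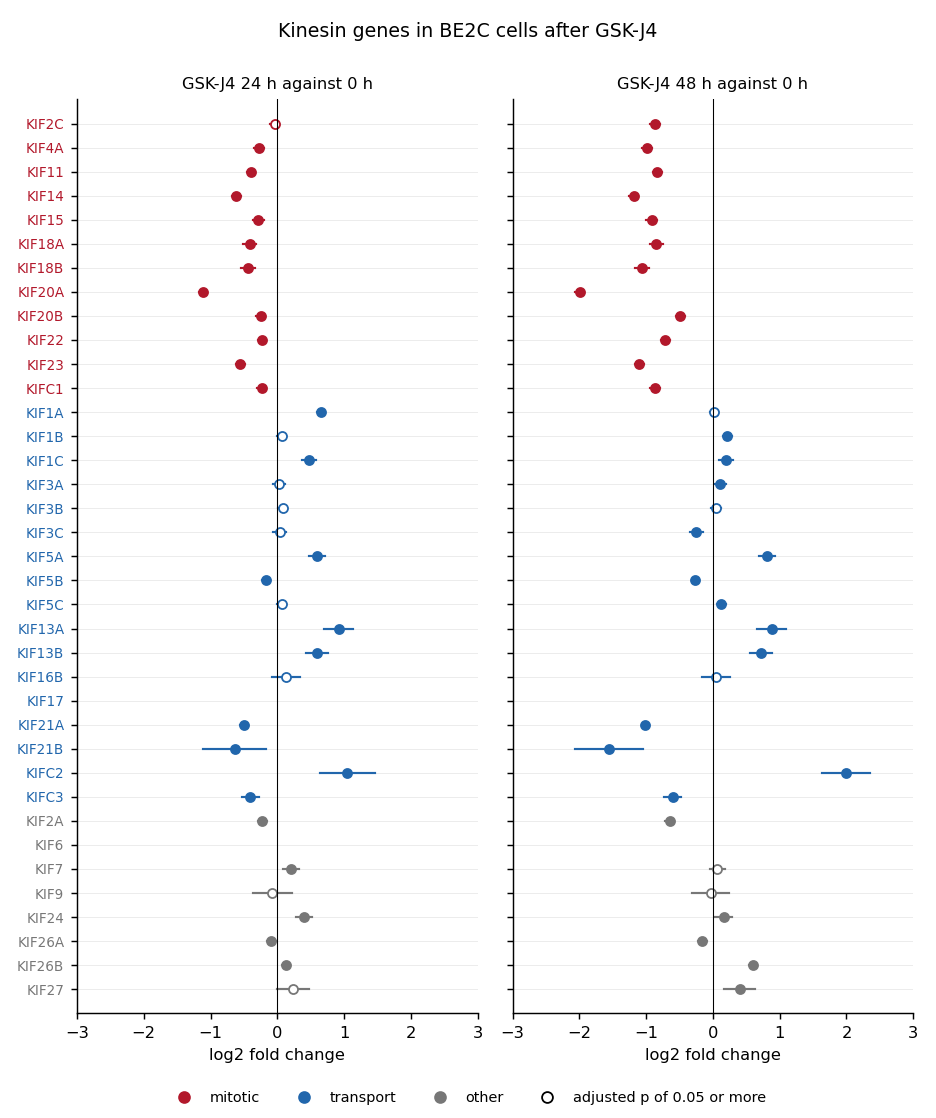
Log2 fold changes of kinesins in BE2C cells at 24 h and 48 h of GSK-J4 against 0 h (dots, edgeR) with 95% confidence intervals (lines), for members with a mean of at least 1 CPM in either group. Filled dots have an adjusted p under 0.05; the mitotic members (red) lie left of 0 and move further left at 48 h, with KIF20A at -1.12 and -1.99, while transport members (blue) lie on both sides, with KIFC2 at 1.99 at 48 h.

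Genes that work with the kinesins were counted from fixed lists. Over all genes, 27.3% were called higher and 28% lower at 24 h, and 37.1% higher and 34.4% lower at 48 h. Counts near these shares do not mark out a list. The 24 spindle partners include the kinases AURKA and PLK1 and the microtubule proteins TPX2 and PRC1. They also include CENPE, a mitotic kinesin whose symbol the rule for members does not match. Of these 24, 21 were lower and 2 higher at 24 h, and 22 lower and 2 higher at 48 h, with medians of -0.59 and -1.22. Of 8 proliferation markers all were lower at both times, and their summed level went from 3270 and 3317 CPM at 0 h to 2386 and 2373 CPM and to 1853 and 1841 CPM. In bulk RNA, fewer dividing cells and less of these transcripts per cell cannot be told apart. Of 16 tested cargo partners (kinesin light chains, adaptors and mitochondrial linkers), 7 were higher and 3 lower at 24 h, and 5 higher and 7 lower at 48 h. Of 26 tested dynein and dynactin genes, the opposite-moving motor, 10 were higher and 14 lower at 24 h and 10 higher and 15 lower at 48 h. Of 17 neuronal microtubule proteins, 7 were higher and 10 lower at 48 h, among them MAPT (0.90) and MAP1B (0.81) on one side and GAP43 (-1.43) and TUBB3 (-0.70) on the other. Markers of cell identity moved as well. Of 10 adrenergic markers, 4 were higher and 6 lower at 24 h and 1 higher and 9 lower at 48 h. Their sum went from 6512 and 6590 CPM to 5352 and 5406 CPM and to 4427 and 4391 CPM. MYCN, 1 of these markers, changed by -0.83 and -1.06 on the log2 scale, and its part in the sum was not tested. Of 5 tested fibroblast markers, 4 were lower at both times, with a sum of 103 and 105 CPM at 0 h, 34.1 and 32.3 CPM at 24 h and 25.4 and 24.5 CPM at 48 h. The blood and endothelial markers summed to 0.41 and 0.45 CPM, 0.89 and 1.34 CPM, and 10.9 and 2.75 CPM. Reads on no gene made up 10.3% and 10.1% at 0 h and 12.6% and 12.4% at 48 h. The part of these in the kinesin changes was not tested.

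The third comparison asked what palbociclib changed within each of 4 lines. Mitotic kinesins fell in every line, slightly in CHLA15 and CHLA20 and steeply in NB1643 and NB1691. Of the 13 mitotic members tested, 11 were lower in CHLA15, 12 in CHLA20, 13 in NB1643 and 12 in NB1691, and none was higher in any line (edgeR, adjusted p under 0.05). Over all genes the percent called lower was 15.6%, 15.9%, 19.7% and 15.5%, and the percent called in either direction 29.8%, 29.6%, 39.9% and 32.8%. The median log2 fold change of the mitotic members was -0.39, -0.45, -2.95 and -2.72, and that of all genes was between 0.00 and 0.02 in each line. Untreated CHLA15 and CHLA20 differed in 12.4% of all genes (edgeR, adjusted p under 0.05), against 64.5% to 80.7% for the other pairs. They are therefore less separate from each other than from the rest. The 4 lines have controls of their own, and 11 of 13 mitotic members (84.6%) were called lower in all 4, beside 3.28% of all genes. In the 3 lines other than NB1691 the number was also 11, beside 6.23% of all genes. The 2 left out, named here after their values were seen, were KIF20B, a cytokinesis motor that did not pass in CHLA15 (-0.05, adjusted p = 0.55), and KIF4B, with at most 14 counts in a library, whose call in NB1643 (adjusted p = 0.030) was lost without a filter (0.059) and without either control or the first palbociclib library (0.055 to 0.31). The call of KIF20B in CHLA20 (adjusted p = 0.023) was lost without a filter (0.051) and without the first control or the first palbociclib library (0.18 and 0.12).

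KIF20A again had the largest decrease in the NB lines. In NB1643 it went from 85.8 and 83.2 CPM in the controls to 1.93 and 2.40 CPM, a 39.5-fold decrease (log2 fold change -5.30 ± 0.09, adjusted p = 4.9e-18). In NB1691 it went from 87.2 and 86.1 CPM to 4.13 and 3.35 CPM, a 23.0-fold decrease (-4.52 ± 0.08, adjusted p = 4.5e-17). The CHLA lines started higher and fell less: from 155 and 152 CPM to 103 and 111 CPM in CHLA15 (-0.52 ± 0.06, adjusted p = 4.5e-06) and from 156 and 153 CPM to 104 and 100 CPM in CHLA20 (-0.60 ± 0.06, adjusted p = 6.8e-07). KIF11 went from 126 and 128 CPM to 22.7 and 23.1 CPM in NB1643 (-2.47 ± 0.06) and from 62.2 and 61.1 CPM to 10.1 and 8.59 CPM in NB1691 (-2.72 ± 0.07). In CHLA15 it went from 204 and 202 CPM to 152 and 155 CPM (-0.40 ± 0.05), and in CHLA20 from 190 and 181 CPM to 135 and 134 CPM (-0.47 ± 0.05). Treated and control libraries did not overlap for either gene in any line.

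KIF23 fell from 54.0 and 58.3 CPM to 3.96 and 4.30 CPM in NB1643 (log2 fold change -3.77 ± 0.08) and from 68.7 and 66.5 CPM to 10.9 and 10.2 CPM in NB1691 (-2.68 ± 0.07). In CHLA15 and CHLA20 its changes were -0.39 ± 0.06 and -0.44 ± 0.06. KIFC1 fell from 87.3 and 85.1 CPM to 9.65 and 8.83 CPM in NB1643 (-3.22 ± 0.07) and from 60.6 and 62.5 CPM to 5.39 and 6.16 CPM in NB1691 (-3.42 ± 0.07), and by -0.36 ± 0.06 and -0.42 ± 0.06 on the log2 scale in CHLA15 and CHLA20. KIF2C was among the steepest in all 4 lines: from 156 and 148 CPM to 11.7 and 12.5 CPM in NB1643 (-3.65 ± 0.08), from 51.9 and 51.5 CPM to 3.996 and 2.79 CPM in NB1691 (-3.91 ± 0.09), and by -0.52 ± 0.07 in CHLA15 and -0.69 ± 0.07 in CHLA20. KIF4A fell from 62.8 and 64.4 CPM to 4.43 and 3.43 CPM in NB1691 (log2 fold change -4.004 ± 0.09), KIF14 from 62.7 and 55.9 CPM to 6.12 and 6.15 CPM in NB1643 (-3.27 ± 0.08), and KIF15, which backs up KIF11 in keeping spindle poles apart, from 90.7 and 87.5 CPM to 62.2 and 63.0 CPM in CHLA15 (-0.51 ± 0.06) and by -0.58 ± 0.06 in CHLA20. The adjusted p of each of these changes was 0.00011 or less (edgeR). Smaller changes, named here after their values were seen, were those of KIF22, a chromosome-binding motor (-1.10 ± 0.05 in NB1643 and -1.39 ± 0.06 in NB1691), and KIF20B in NB1643 (-1.21 ± 0.06).

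**Figure D3:**
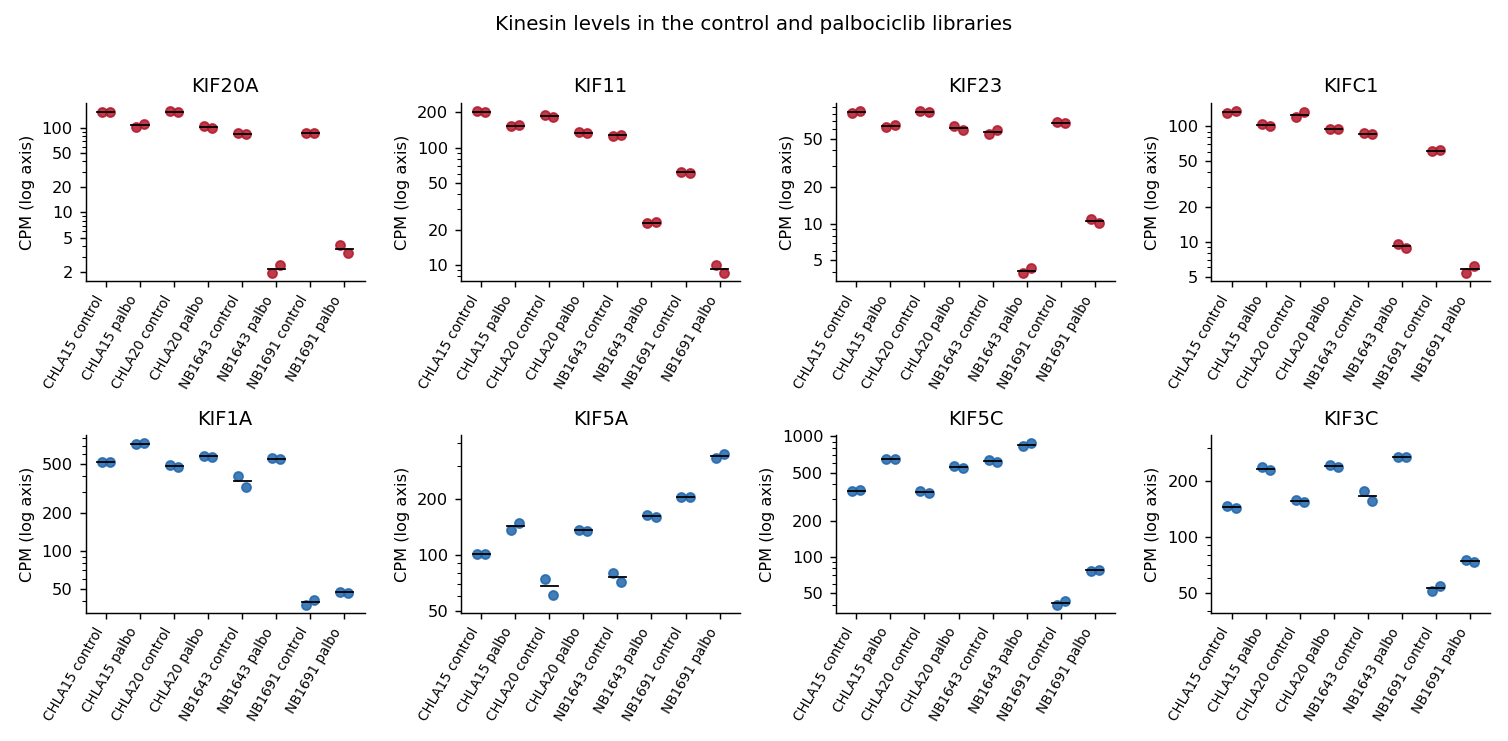
Levels of 4 mitotic (red) and 4 transport (blue) kinesins in the 16 control and palbociclib libraries, in CPM on a log axis. Each point is 1 library and the bar is the mean of 2; KIF20A drops from 85.8 and 83.2 to 1.93 and 2.40 CPM in NB1643, and KIF5A, KIF5C, KIF3C and KIF1A are above their controls in each line.

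Whether the lines differed in their response was tested as an interaction of line and palbociclib. Of 41 kinesins 30 passed this test (edgeR, adjusted p under 0.05), 12 of 13 mitotic, 12 of 17 transport and 6 of 11 other members, beside 38% of all genes. The 5 with the smallest p were all mitotic: KIF20A (adjusted p = 2.4e-16), KIFC1 (3.0e-15), KIF23 (3.9e-15), KIF4A (5.3e-15) and KIF2C (8.1e-15). Between CHLA15 and CHLA20 the effect differed for 0 of 13 mitotic members, with a median difference of -0.07 on the log2 scale. Between either CHLA line and NB1643 it differed for 12 or 13 of the 13, and between either CHLA line and NB1691 for 12, always with the deeper fall in the NB line. Between NB1691 and NB1643 it differed for 8 of 13, with 4 falling deeper in each. The share of all genes that passed these tests of line pairs was not counted, so the counts by pair are a description only. The CHLA lines had received 300 nM and the NB lines 3 μM, so these differences cannot be told apart from the dose. Nor can they be told apart from other traits of the lines, such as MYCN status. Without NB1691, an alternative added after its marker levels were seen, 22 of 40 kinesins (55%) passed the interaction test, beside 23.2% of all genes, and the 5 named mitotic members kept adjusted p values of 4.6e-11 or less.

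Among transport kinesins, higher calls outnumbered lower ones in each line. Of 17 tested, 10 were higher and 2 lower in CHLA15, 10 and 3 in CHLA20, 8 and 4 in NB1643 and 8 and 1 in NB1691, beside 14.2%, 13.7%, 20.3% and 17.4% of all genes called higher. Their median log2 fold changes were 0.32, 0.26, 0.19 and 0.11. In NB1691 the number higher was 5 with library totals in place of TMM, and in CHLA20 it was 6 without the first palbociclib library. Higher in all 4 lines were KIF1A, KIF3C, KIF5A and KIF5C of the transport members (23.5%) and KIF26A of the others, beside 3.53% of all genes. The first 4 are motors abundant in neurons. In the 3 lines other than NB1691, KIF1B, KIF3B and KIF9 were higher as well (6 of 17 transport members, 35.3%, and 2 of 11 others, 18.2%, beside 6.08% of all genes), and these 3 are named after their values were seen.

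KIF5C rose from 353 and 356 CPM to 652 and 652 CPM in CHLA15 (log2 fold change 0.88 ± 0.05, adjusted p = 4.1e-10) and from 351 and 336 CPM to 571 and 551 CPM in CHLA20 (0.71 ± 0.05, adjusted p = 4.8e-09). In NB1643 it rose from 641 and 617 CPM to 838 and 875 CPM (0.45 ± 0.05, adjusted p = 7.2e-07) and in NB1691 from 39.9 and 43.1 CPM to 76.6 and 77.8 CPM (0.89 ± 0.05, adjusted p = 1.7e-10). The difference between the rises in NB1691 and CHLA15 was 0.01 ± 0.07 on the log2 scale (adjusted p = 0.96), from a lower starting level in NB1691. KIF5A rose from 101 and 100 CPM to 136 and 148 CPM in CHLA15 (0.49 ± 0.08, adjusted p = 5.8e-05), from 74.4 and 60.9 CPM to 136 and 134 CPM in CHLA20 (0.997 ± 0.08, adjusted p = 1.5e-08), from 80.1 and 71.0 CPM to 164 and 160 CPM in NB1643 (1.10 ± 0.08, adjusted p = 1.4e-09) and from 205 and 203 CPM to 331 and 350 CPM in NB1691 (0.74 ± 0.07, adjusted p = 3.3e-07). About 0.58% of its exonic bases overlap DCTN2. The effects differed between lines for KIF5A (interaction adjusted p = 0.00069) and for KIF5C (0.00014).

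KIF3C, the neuronal partner of KIF3A in kinesin-2, rose in each line, by 0.69 ± 0.06 in CHLA15, 0.63 ± 0.06 in CHLA20, 0.68 ± 0.06 in NB1643 and 0.49 ± 0.06 in NB1691 on the log2 scale (interaction adjusted p = 0.16). Its levels went from 145 and 142 CPM to 236 and 228 CPM in CHLA15 and from 51.1 and 54.3 CPM to 75.1 and 72.8 CPM in NB1691. KIF1A rose from 519 and 517 CPM to 720 and 729 CPM in CHLA15 (0.48 ± 0.07) and from 402 and 327 CPM to 556 and 543 CPM in NB1643 (0.59 ± 0.07). Its rises in CHLA20 (0.26 ± 0.07, adjusted p = 0.0072) and NB1691 (0.26 ± 0.07, adjusted p = 0.011) were smaller. The CHLA20 call was lost without the second control or without either palbociclib library (adjusted p = 0.059 to 0.090), and the NB1691 call without the first control or the first palbociclib library (0.14 and 0.068) and with library totals (0.097), so that the rise in all 4 lines is not firm for KIF1A. KIF26A rose by 0.32 ± 0.09, 0.35 ± 0.09, 0.54 ± 0.09 and 0.44 ± 0.10 in CHLA15, CHLA20, NB1643 and NB1691. Its call was lost in CHLA15 without either control or the first palbociclib library (adjusted p = 0.064 to 0.079) and in CHLA20 without the first control or the second palbociclib library (0.076 and 0.051). Its level in NB1643 went from 228 and 174 CPM in the controls to 305 and 279 CPM. KIFC2 rose in CHLA20 from 17.9 and 17.1 CPM to 24.8 and 24.5 CPM (0.49 ± 0.11, adjusted p = 0.0022).

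Of 41 members 4, KIF1C, KIF12, KIF16B and KIF21B, were called higher in some lines and lower in others (9.76%, beside 7.73% of all genes), and KIF1C, KIF16B and KIF21B are named here after their values were seen. The call of KIF16B in CHLA15 was lost without any 1 of the CHLA15 libraries (adjusted p = 0.054 to 0.12), and that in NB1691 with DESeq2 (0.051) and without the second control or the second palbociclib library (0.30 and 0.28). KIF21B rose in CHLA15 (log2 fold change 0.32 ± 0.10, adjusted p = 0.017, but 0.14 without the second control and 0.13 without the first palbociclib library) and fell in NB1691 (-0.55 ± 0.10, adjusted p = 0.00022) and in NB1643, from 1.21 and 1.09 CPM to 0.307 and 0.102 CPM (-2.40 ± 0.29, adjusted p = 1.9e-06). KIF17, which carries receptor-containing vesicles in dendrites, fell in CHLA15 from 2.62 and 2.73 CPM to 1.51 and 1.15 CPM (log2 fold change -1.01 ± 0.18, adjusted p = 0.00029) and in CHLA20 from 2.77 and 2.58 CPM to 1.33 and 1.75 CPM (-0.80 ± 0.18, adjusted p = 0.0019). In NB1643 and NB1691 it did not pass the test, with values of -0.35 (95% confidence interval -0.70 to -0.01, adjusted p = 0.10) and 0.00 (-0.36 to 0.37). KIF12, classed among the others, was at 0 counts in NB1643 and near the floor in the CHLA lines, but stood at 1.73 and 1.39 CPM in untreated NB1691 and at 2.67 and 2.69 CPM after palbociclib (0.79 ± 0.22, adjusted p = 0.012). In CHLA15 both palbociclib libraries were at 0 counts, so no fold is given there. The call in NB1691 was lost with DESeq2 (adjusted p = 0.078) and without the second control or either palbociclib library (adjusted p = 0.072 to 0.15). KIF24, a centriole kinesin chosen here after its values were seen, was lower in NB1643 (-1.59 ± 0.11), NB1691 (-1.32 ± 0.11) and CHLA20 (-0.32 ± 0.09, lost without the first control or the second palbociclib library, adjusted p = 0.057 and 0.14) and did not pass the test in CHLA15 (0.07 ± 0.09, adjusted p = 0.63).

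**Figure D4:**
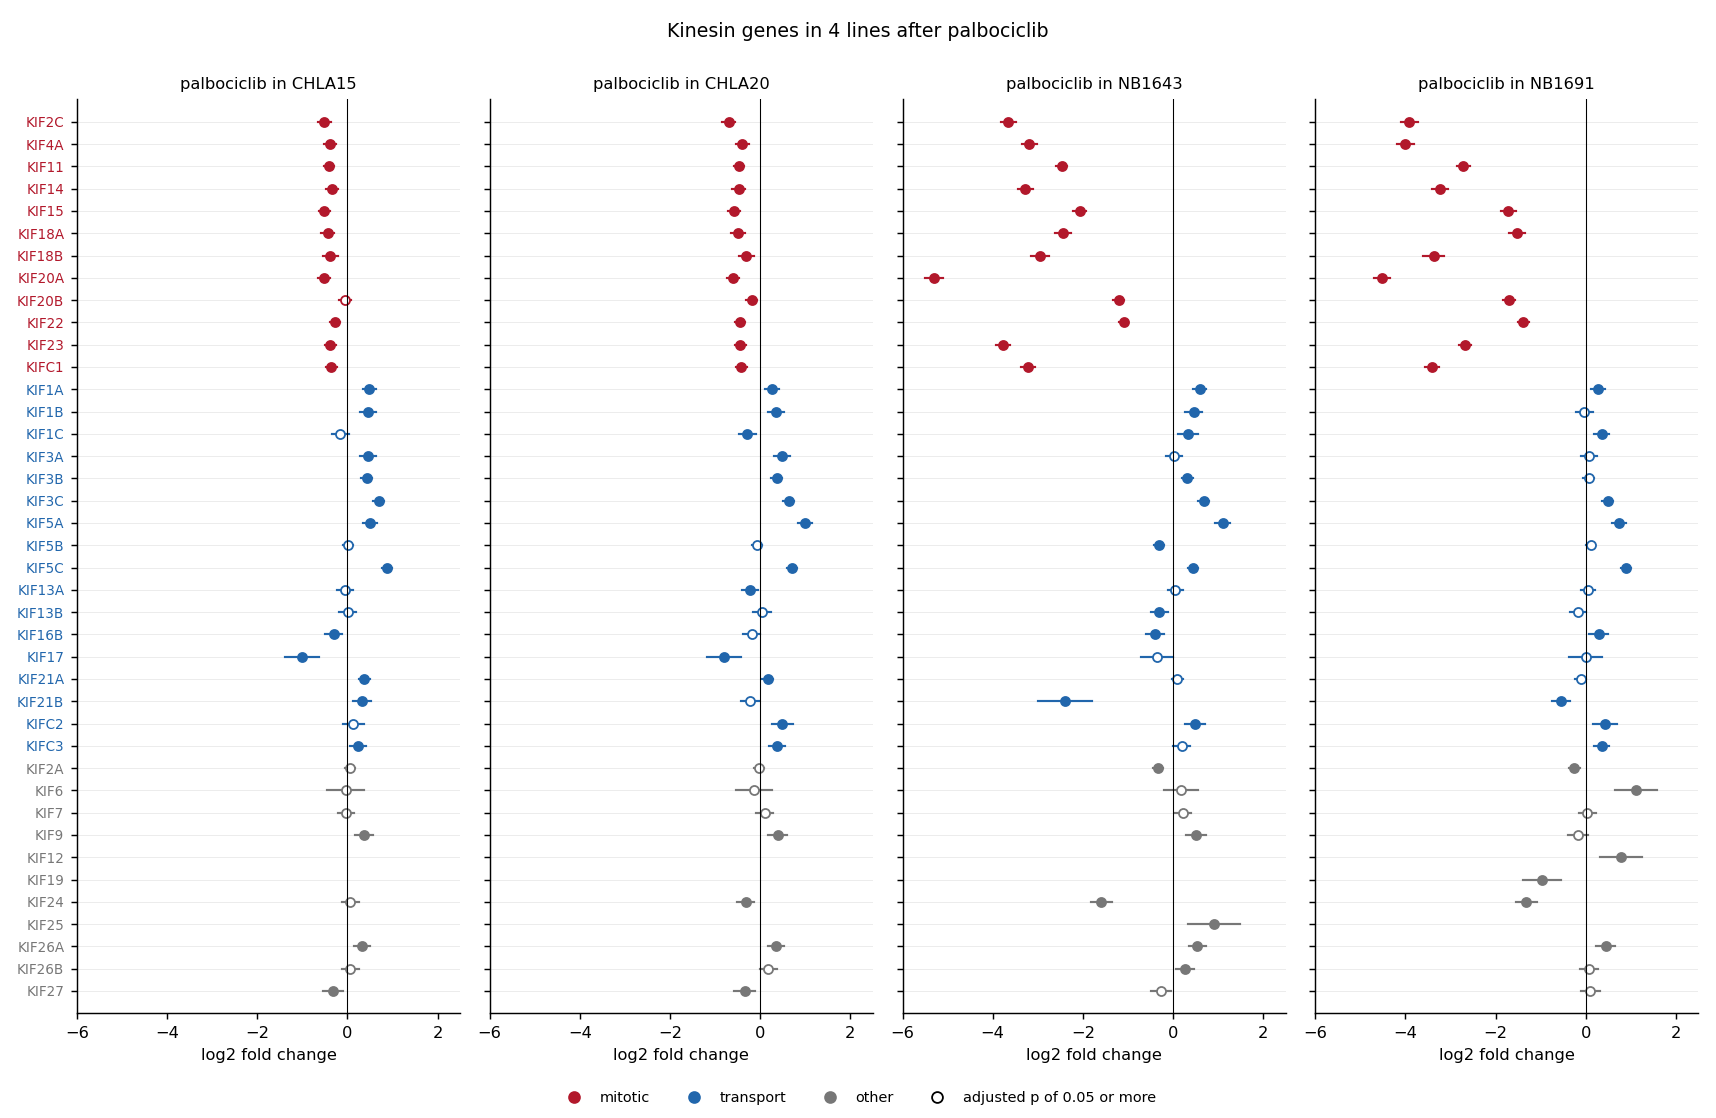
Log2 fold changes of kinesins after palbociclib in CHLA15, CHLA20, NB1643 and NB1691 (dots, edgeR) with 95% confidence intervals (lines), for members with a mean of at least 1 CPM in either group of the line. Filled dots have an adjusted p under 0.05; mitotic members (red) have a median of -0.39 and -0.45 in the CHLA lines and of -2.95 and -2.72 in the NB lines, while most transport members (blue) lie right of 0.

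Genes that work with the kinesins were counted from the same fixed lists. Over all genes, 14.2%, 13.7%, 20.3% and 17.4% were called higher in CHLA15, CHLA20, NB1643 and NB1691. The percent called lower was 15.6%, 15.9%, 19.7% and 15.5%, and counts near these shares do not mark out a list. Of 24 spindle partners, 17 were lower in CHLA15, 22 in CHLA20, 23 in NB1643 and 24 in NB1691, with medians of -0.26, -0.36, -2.48 and -2.67, and 1 was higher, NUMA1 in NB1643 (0.38). Of 8 proliferation markers, 6 were lower in CHLA15 and 8 in each other line. Their summed level went from 2776 and 2832 CPM to 2090 and 2219 CPM in CHLA15 and from 1579 and 1619 CPM to 182 and 181 CPM in NB1643, and their part in the result was not tested. Of 17 neuronal microtubule proteins, 15, 16, 14 and 14 were higher in CHLA15, CHLA20, NB1643 and NB1691, with medians of 0.62, 0.62, 0.38 and 0.47. MAPT, which encodes tau, was at 0.65, 0.86, 0.63 and 0.59 in the 4 lines, and the stathmin gene STMN4 at 1.41, 1.43, 0.75 and 1.96. Of 18 cargo partners, 10, 12, 11 and 8 were higher and 2, 0, 2 and 0 lower. Of 27 dynein and dynactin genes, 13, 12, 11 and 7 were higher and 2, 2, 3 and 4 lower. Of 10 adrenergic markers, 2, 2, 7 and 6 were higher and 3, 1, 1 and 0 lower. The fibroblast markers summed to 255 and 295 CPM after palbociclib in CHLA15 (360 and 378 CPM in the controls), 283 and 287 CPM in CHLA20 (370 and 395 CPM), 43.0 and 42.9 CPM in NB1643 (71.2 and 71.9 CPM) and 21262 and 22144 CPM in NB1691 (16757 and 16457 CPM), and their part in the kinesin changes was not tested.

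The last comparison set the 4 untreated lines side by side. Of 41 kinesins 39 differed among them, beside 91.2% of all genes, so that a difference by itself does not mark out a member. The 5 with the smallest p were KIF5C (adjusted p = 3.2e-20), KIF21A (1.8e-18), KIF1C (2.3e-18), KIF1A (5.2e-18) and KIF13A (6.4e-18). In each of them NB1691 stood apart. KIF5C was at 641 and 617 CPM in NB1643, 353 and 356 CPM in CHLA15, 351 and 336 CPM in CHLA20 and 39.9 and 43.1 CPM in NB1691. KIF21A was at 610 and 589 CPM in NB1643, 516 and 494 CPM in CHLA15, 480 and 427 CPM in CHLA20 and 68.7 and 70.9 CPM in NB1691. KIF1A was at 519 and 517 CPM in CHLA15, 487 and 470 CPM in CHLA20, 402 and 327 CPM in NB1643 and 37.03 and 40.7 CPM in NB1691. For these 3 neuronal motors CHLA15 and CHLA20 were neighbours whose levels did not pass the test against each other (adjusted p = 0.65, 0.079 and 0.32), a pair in which 12.4% of all genes passed, against 64.6% between NB1643 and CHLA15, 64.5% between NB1643 and CHLA20, 78% between NB1691 and CHLA15, 77.5% between NB1691 and CHLA20 and 80.7% between NB1691 and NB1643.

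KIF1C and KIF13A were highest in NB1691. KIF1C, which moves integrin-bearing vesicles, was at 147 and 146 CPM in NB1691, 22.0 and 25.2 CPM in CHLA20, 19.3 and 20.3 CPM in CHLA15 and 9.48 and 7.10 CPM in NB1643. KIF13A was at 134 and 138 CPM in NB1691, 29.3 and 28.6 CPM in NB1643, 18.5 and 18.3 CPM in CHLA15 and 18.5 and 15.04 CPM in CHLA20, with the CHLA lines not past the test against each other (adjusted p = 0.077 for KIF1C and 0.35 for KIF13A). Not every neuronal motor was low in NB1691: KIF5A was highest there, at 205 and 203 CPM against 60.9 to 101 CPM in the other lines (log2 difference from CHLA15 1.02 ± 0.08, adjusted p = 3.3e-10). The part of the fibroblast and adrenergic marker levels of NB1691 in the kinesin differences was not tested. Without NB1691, 26 of 40 kinesins (65%) differed among the other 3 lines, beside 72.2% of all genes, and the 5 named members were among them (adjusted p of 0.00013 or less).

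**Figure D5:**
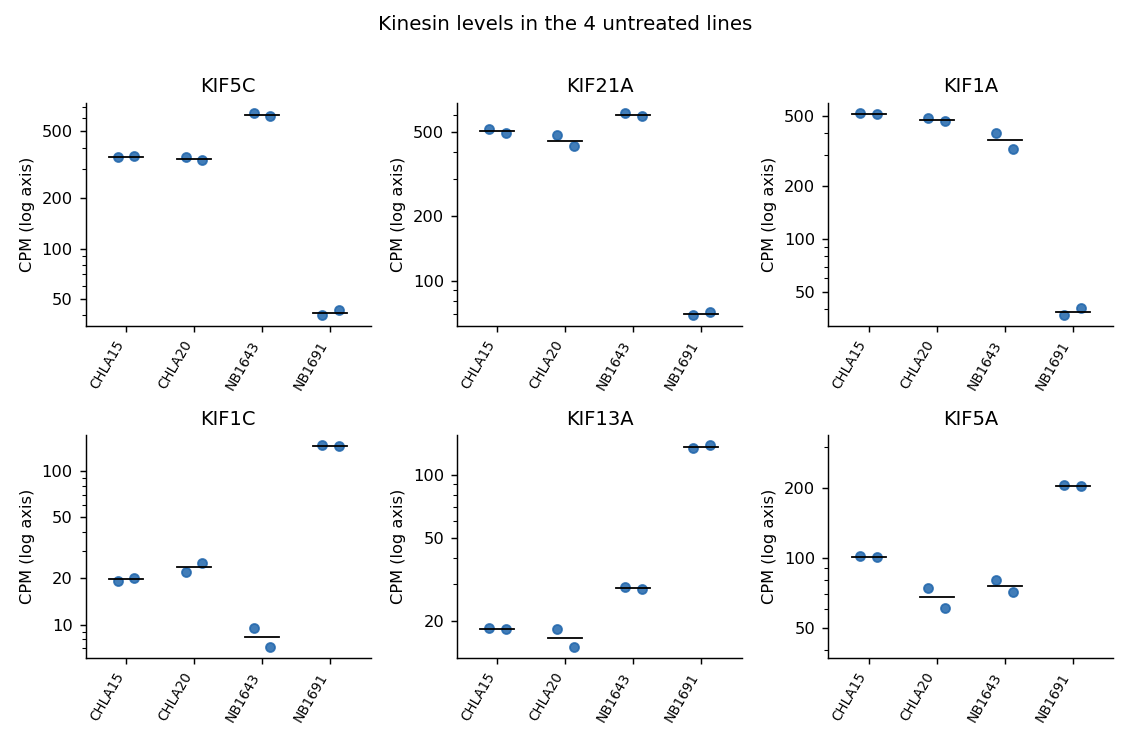
Levels of 6 transport kinesins in the untreated libraries of 4 lines, in CPM on a log axis. Each point is 1 library and the bar is the mean of 2; NB1691 is lowest for KIF5C (39.9 and 43.1 CPM), KIF21A and KIF1A and highest for KIF1C (147 and 146 CPM), KIF13A and KIF5A.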

How the data were processed

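RNA was sequenced from cell lines, although the labels' extraction text speaks of xenograft tissue. The authors deposited raw read counts per gene symbol, 38 files, made with STAR 2.5.3a and HTSeq on hg19/GRCh37 per the labels. The methods name a mouse annotation release although the symbols are human, and whether counting used strand is not given in the sources used here. Summing paired files reduced the 22 BE2C files to 11 libraries, since paired files differed less (chi-square per degree of freedom 1.48 to 1.65) than different replicates did (1.89 to 4.33). The siKDM6B files carry 1 replicate number, so taking each pair as 1 library is an assumption. Each experiment (5, 6 and 16 libraries) was fitted apart with edgeR 4.0.16 in R 4.3.3 (quasi-likelihood F test, TMM, filterByExpr), with Benjamini-Hochberg adjustment over all genes tested and a threshold of 0.05. The steps were tested on simulated data. The ± values are standard errors.

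Alternatives were DESeq2 1.42.0, limma-voom (limma 3.58.1, the study's own method), library totals, upper quartiles, no filter beyond 1 count, each file as a sample, only the groups compared, a replicate block and leaving out each library. The members and lists were chosen with earlier results of these data known. Genes named are KIF11, KIF20A, KIF23, KIFC1, KIF1A, KIF5A and KIF5C in every comparison, the 4 largest changes in each direction among members past the test with at least 1 CPM and no overlap between groups, and the 5 smallest p in tests among lines. Other members were named after their values were seen. Exonic lengths came from GENCODE on GRCh37. Depth on genes ranged from 41227956 to 50776662 counts for the siRNAs, from 36186567 to 63433818 for GSK-J4 and from 45457371 to 93011010 for palbociclib. The floor of 3 counts covers counting error only.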

Additional observations from a re-analysis of the deposited data

Results flagged for a closer look

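The effect of palbociclib was compared between the 4 lines in the test of the interaction itself (edgeR, adjusted p), which 38% of all genes passed. For the 5 kinesins chosen by their smallest p in this same test, the values were 2.37e-16 for KIF20A, 3.05e-15 for KIFC1, 3.87e-15 for KIF23, 5.29e-15 for KIF4A and 8.14e-15 for KIF2C. That these 5 passed was fixed by the choice and is given as a description. Of the members followed throughout, KIF11 was at 2.66e-14, KIF5C at 0.000142, KIF5A at 0.000691 and KIF1A at 0.0237. The KIF1A call was lost without the NB1691 line (0.093) and in 9 of the fits that left out 1 library (0.053 to 0.093). The mitotic members fell deeper in NB1643 and NB1691, which had received 3 μM, than in CHLA15 and CHLA20, which had received 300 nM, and line and dose cannot be told apart.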

How the results depend on the processing

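Of the counts under alternative settings, 305 stayed within 1.5 times the reported count and 8 moved. With each file as a sample, 9 kinesins passed the test in the siRNA experiment, all lower (4 mitotic, 4 transport and 1 other), beside 2354 of 15325 genes. From 24 h to 48 h the transport members called higher numbered 5 with each file as a sample, 5 with library totals and 6 with upper quartiles. With library totals 5 transport members were higher in NB1691, beside 2762 of 22133 genes. Leaving out 1 library at a time gave 6 to 9 transport members higher in CHLA20, with the lowest number without the first palbociclib library. Counting TTTAAA gave 2 transport promoters with a CHR. The sign of KIF1A changed in the siRNA experiment without N2 (0.24, with -0.36 as the lowest value, without N33), and at 48 h of GSK-J4 with DESeq2 (-0.011), with only the compared groups (-0.0019) and without the first 48 h library (-0.0017, with 0.028 as the highest value, without the second). The cause of these changes was not tested. Leaving out 1 library at a time, the kinesins called numbered 0 for the siRNAs, 24 to 26, 28 to 30 and 24 to 26 for GSK-J4 at 24 h, 48 h and between them, 20 to 23, 21 to 25, 26 to 31 and 23 to 26 for palbociclib in CHLA15, CHLA20, NB1643 and NB1691, 26 to 36 for the interaction and 38 to 39 among untreated lines. Outside the siRNA experiment the share of all genes called moved under these fits as well, so the counts are a description only. Same-numbered replicates did not deviate together (correlations of -0.063 to 0.048), so the numbers were not taken as pairs. With the replicate block the kinesins called numbered 27, 30 and 27 for GSK-J4, beside 56%, 71.8% and 54.5% of all genes. For palbociclib they numbered 27, 30, 31 and 26, beside 30.3%, 30.2%, 40.5% and 33.7% of all genes. They numbered 31 for the interaction, beside 38.5%, and 38 among untreated lines, beside 86.2%. In the siRNA experiment no paired analysis was possible because each siRNA has 1 library. With 2 libraries per group, small changes of members at low counts are the least certain.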
